A study of Mus musculus with 2 samples.

Results

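Immediate-early genes are switched on within minutes of a stimulus, before any protein has to be made, and their mRNAs are short-lived. Growth factor and stress signals reach them through MAP kinases and factors such as SRF, and many code for transcription factors that act on the next wave of genes. The same genes are known to respond while a tissue is taken apart into single cells. In a testis suspension their level may therefore reflect what cells met before lysis as well as what they did in the animal. Described here are 10 of the 32285 genes in the count tables: Fos, Fosb, Jun, Junb, Jund, Egr1, Ier2, Ier3, Zfp36 and Klf2, chosen by symbol. The choice was made with results of these data known, and all 10 had at least 30 UMIs in every class of cells compared.

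The libraries came from whole testis of male C57BL/6 mice aged 13 days, made with 10x Chromium 3' V3 chemistry. The control was Psma7 F/+, with a floxed and a wild-type copy, and the knockout was Psma7 F/-;Stra8-Cre KI/+, with a floxed and a deleted copy and a Cre inserted at Stra8, a gene that germ cells express. The control's label gives no Cre, every cell of the knockout animal carries a deleted copy, and how many animals were pooled is not given. Each genotype had 1 library and was a separate suspension, so nothing below was tested against replicates, genotype and handling cannot be told apart, and every 95% interval covers counting error only.

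After filtering, 10737 control and 10589 knockout cells were kept, with 115929415 and 90948607 UMIs and medians of 8046 and 5395 UMIs per cell. Of the barcodes called as cells, 29 occurred in both libraries. Psma7, the targeted gene, had 231 CPM (UMIs per 1000000 UMIs) in control cells against 98.1 CPM in knockout cells, and was lower in the knockout library in each of the 8 classes compared. Its 3' tag may lie outside the deleted part. Classes are named by resemblance to marker genes ("-like" is implied throughout), from clusters made without the 10 genes and without related stress genes. They are undifferentiated spermatogonia (529 control and 286 knockout cells), germ cells of mixed stage (2210 and 113), Sertoli cells (3705 and 6374), peritubular myoid cells (847 and 777), interstitial stromal cells (1685 and 2145), Leydig cells (298 and 305), endothelial cells (89 and 66) and macrophages (120 and 130). The macrophage class also held some lymphoid cells: 9 lymphoid markers summed to 926 CPM in its control cells against 1241 CPM in its knockout cells.

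Over all cells, every one of the 10 genes was higher in the knockout library. Their sum was 4880 CPM (4867 to 4893) for control cells against 12248 CPM (12225 to 12271) for knockout cells, 2.51-fold more and 1.33 on the log2 scale. Fosb was furthest apart at 3.04-fold, Fos stood at 2.73-fold, and Ier3 was closest at 1.95-fold. All 10 were at least 1.5-fold higher, a fold that 20.3% of the 21401 genes with at least 30 UMIs also reached in that direction. The mix of cells differed as well. At the control's own level in each class but the knockout library's mix of classes, the sum would be 8911 CPM, which is 0.87 of the 1.33 on the log2 scale and leaves 0.46 between like classes. Gene by gene at that mix, only Fosb (0.71) stayed at least 1.5-fold higher, and the other 9 lay between 0.28 (Ier2) and 0.53 (Fos).

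The difference between like classes was uneven. The 10 genes summed were highest in interstitial stromal cells and lowest in germ cells in both libraries, and the low classes were those in which the libraries were furthest apart. In Sertoli cells the sum was 3128 CPM (3108 to 3149) for control against 6001 CPM (5977 to 6025) for knockout cells, with a log2 ratio of knockout over control of 0.94 (0.93 to 0.95). In the pairs of values that follow, the control comes first. Undifferentiated spermatogonia were at 789 and 1411 CPM (0.84, 0.79 to 0.89) and germ cells of mixed stage at 685 and 1250 CPM (0.87, 0.80 to 0.94). These are the cells inside the tubule. In germ cells of mixed stage the makeup differed as well, and its part was not tested: 16 Sertoli markers summed to 281 and 563 CPM, 10 stromal markers to 89.3 and 168 CPM, 16 markers of undifferentiated spermatogonia to 255 and 502 CPM, and 14 meiotic markers to 3294 and 2048 CPM. The tubule wall came next, with peritubular myoid cells at 12433 and 18490 CPM (0.57, 0.56 to 0.59), just short of 1.5-fold; 9 myoid markers summed to 12957 and 8494 CPM there, and their part in the result was not tested. Between the tubules, Leydig cells were at 11242 and 15333 CPM (0.45) and interstitial stromal cells at 16909 and 20741 CPM (0.29). Endothelial cells, at 13886 and 13962 CPM, had a log2 ratio of 0.01 (-0.02 to 0.04), and macrophages, at 10258 and 10458 CPM, one of 0.03 (-0.0036 to 0.06). In those last classes the libraries did not differ beyond counting error in these sums. The endothelial sum rested largely on deep cells, those over 16000 UMIs. In the control, 31 such cells held 23173 of the 25477 UMIs of the 10 genes, and in the knockout 15 held 11101 of 13156. With each cell thinned to 1000 UMIs the log2 ratio was 0.23 in endothelial cells and 0.22 in macrophages. The endothelial class differed in other ways: 7 erythroid markers summed to 346 and 1941 CPM there and 10 stromal markers to 256 and 1075 CPM, and their part in the result was not tested.

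**Figure D1:**
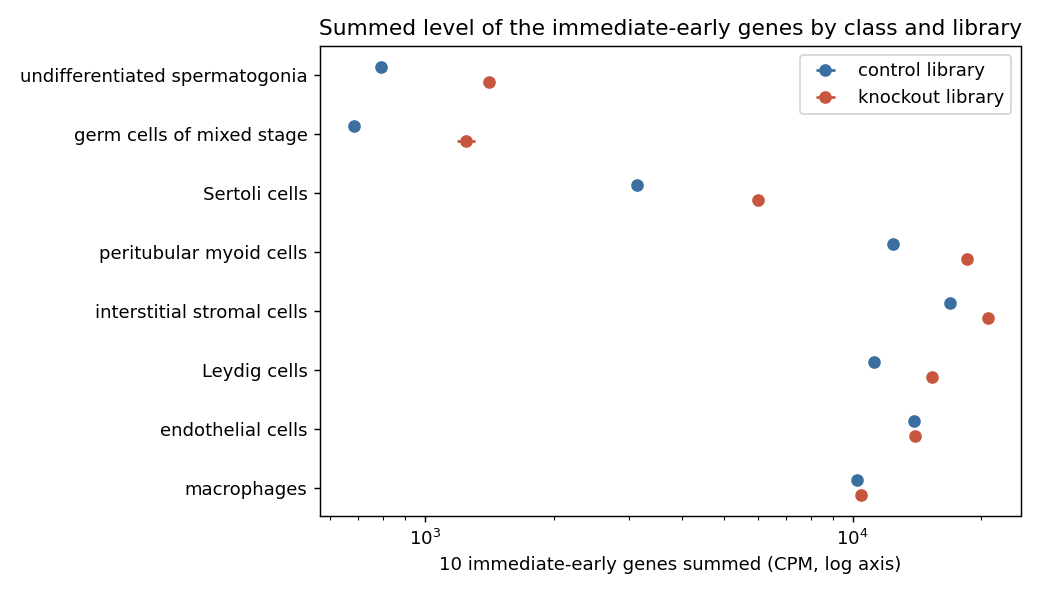
Level of the 10 immediate-early genes summed, in CPM on a log axis, for each class of cells; points are the control and the knockout library, 1 library each, and bars are exact 95% Poisson intervals, mostly smaller than the points. The libraries lie apart in germ and Sertoli cells (789 against 1411 and 3128 against 6001 CPM) and on top of each other in endothelial cells and macrophages.

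Counted gene by gene, the order of the classes was much the same. In undifferentiated spermatogonia 8 of the 10 were at least 1.5-fold higher (15% of all genes with at least 30 UMIs there were), in germ cells of mixed stage 8 (27%), in Sertoli cells 9 (18.3%), in peritubular myoid cells 3 (5.93%), in Leydig cells 1 (5.37%), in interstitial stromal cells 0 (5.73%), in endothelial cells 1 (8.96%) and in macrophages 0 (6.87%). The median log2 ratio of the 10 was 1.12, 1.26, 0.88, 0.48, 0.38, 0.33, 0.01 and -0.01 in the same order, where the median of all genes lay between -0.07 and 0.12. Smaller differences had 1 direction in 6 classes: all 10 genes were above the control in both germ cell classes, Sertoli, myoid, stromal and Leydig cells. In endothelial cells 6 of 10 and in macrophages 4 of 10 were above it. No member was at least 1.5-fold higher in more than 4 of the 8 classes. Of the 8058 genes measured in all 8 classes, 4.22% were that much higher in at least 3, and 8 of the 10 members were among them.

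**Figure D2:**
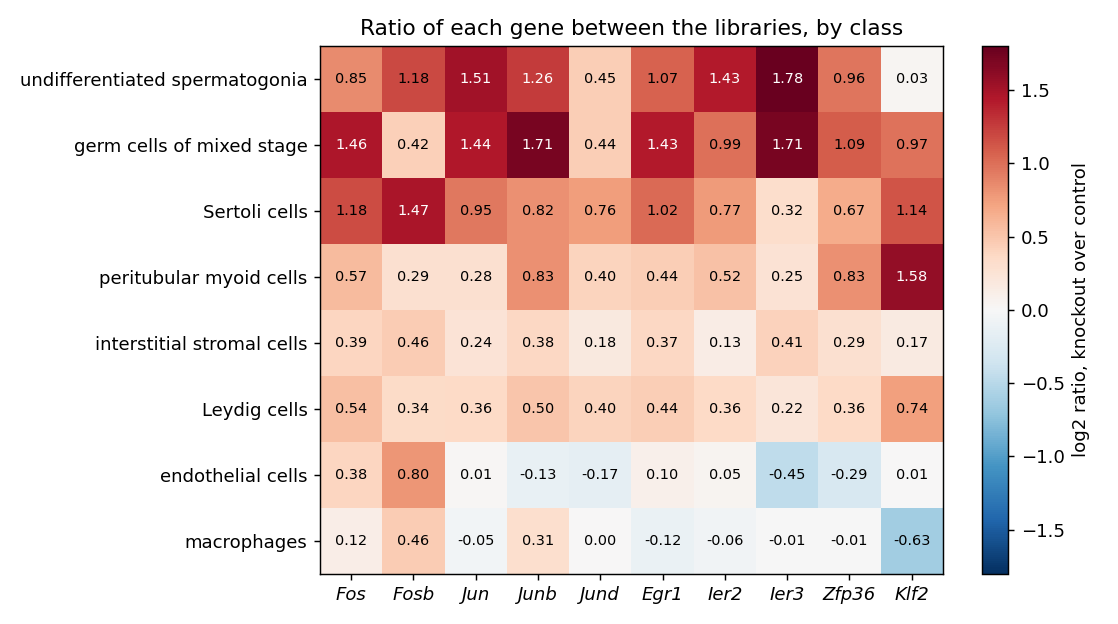
Log2 ratio of knockout over control for each of the 10 genes (columns) in each class (rows), red where the knockout library was higher and blue where it was lower. Red is deepest in the germ cell and Sertoli rows, with Klf2 in peritubular myoid cells at 1.58. The endothelial and macrophage rows are pale or blue, apart from Fosb in endothelial cells at 0.80.

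Fos and Fosb code for the FOS side of AP-1, the paired transcription factor in which a FOS protein binds a JUN protein, and their proteins bind DNA well only as such pairs. Fos (ENSMUSG00000021250, mm10 chromosome 12 at 85473890 to 85477273, plus strand) stood at 335 and 758 CPM in Sertoli cells, with a log2 ratio of 1.18 (1.15 to 1.21). In undifferentiated spermatogonia it was at 76.3 and 137 CPM, in germ cells of mixed stage at 57.0 and 156 CPM. The classes outside the tubule had levels many times higher and closer to each other: 3238 and 4236 CPM in interstitial stromal cells, 2312 and 3352 CPM in Leydig cells, 2367 and 3507 CPM in peritubular myoid cells. Fos was the one gene besides Fosb to be higher in the knockout library in all 8 classes, down to 2191 and 2860 CPM in endothelial cells and 1247 and 1357 CPM in macrophages. For Fos the intervals lay above 0 in all 8 classes and for Fosb in 7, the exception being germ cells of mixed stage.

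Fosb (ENSMUSG00000003545, chromosome 7 at 19302696 to 19310051, minus strand) had its largest ratio in Sertoli cells, where it stood at 145 and 400.1 CPM (1.47, 1.42 to 1.52). It was at 14.0 and 31.7 CPM in undifferentiated spermatogonia. In macrophages it was at 177 and 245 CPM (0.46, 0.24 to 0.69), and in endothelial cells at 132 and 229 CPM (0.80, 0.53 to 1.07).

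The JUN proteins are the other side of AP-1 and can pair with each other. Jun (ENSMUSG00000052684, chromosome 4 at 95049034 to 95052222, minus strand) was at 72.9 and 208 CPM in undifferentiated spermatogonia, a log2 ratio of 1.51 (1.36 to 1.66). Sertoli cells had 784 and 1517 CPM of it. The level in interstitial stromal cells, 2819 and 3327 CPM, was the highest of the 8 classes in both libraries, with a ratio of 0.24. Endothelial cells (2176 and 2198 CPM) and macrophages (2219 and 2147 CPM) did not differ beyond counting error.

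Junb (ENSMUSG00000052837, chromosome 8 at 84974484 to 84978718, minus strand), a JUN protein that often restrains growth, had its highest level in peritubular myoid cells, at 2272 and 4028 CPM (0.83). It was at 30.6 and 99.7 CPM in germ cells of mixed stage (1.71, 1.44 to 1.96) and at 38.6 and 92.3 CPM in undifferentiated spermatogonia. Endothelial cells went the other way, with 2131 and 1944 CPM (-0.13, -0.21 to -0.05), while macrophages had 1731 and 2141 CPM.

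Jund (ENSMUSG00000071076, chromosome 8 at 70698949 to 70700616, plus strand) is the JUN gene that resting cells keep on, and it was the most even of the 10 across classes. From the lowest to the highest class its control level spanned 4.41-fold, against 39.4-fold for Fosb and 155-fold for Ier3, the ends of the range among the other 9. Undifferentiated spermatogonia held 401 and 548 CPM (0.45), germ cells of mixed stage 407 and 553 CPM (0.44), Sertoli cells 721 and 1218 CPM (0.76) and interstitial stromal cells 1771 and 2010 CPM (0.18). It passed 1.5-fold in Sertoli cells only among the 8 classes. Its spread of ratios over the classes, an SD of 0.29, was also the smallest of the 10, and Ier3 had the largest at 0.80.

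Egr1 (ENSMUSG00000038418), a zinc finger factor that binds GC-rich sites and answers growth factors, was at 454 and 920 CPM in Sertoli cells (1.02, 0.99 to 1.05). It was at 96.5 and 202 CPM in undifferentiated spermatogonia and at 45.7 and 123 CPM in germ cells of mixed stage. Peritubular myoid cells had most of it in both libraries, 2307 and 3131 CPM (0.44). Macrophages were slightly lower in the knockout library, with 1165 and 1069 CPM (-0.12, -0.22 to -0.03).

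Klf2 (ENSMUSG00000055148, chromosome 8 at 72319033 to 72321656, plus strand), a Kruppel-like factor best known for its response to flow in vessel walls, had a pattern of its own. Its largest ratio was in peritubular myoid cells, with 282 and 842 CPM (1.58, 1.497 to 1.66), and Leydig cells had 465 and 779 CPM (0.74). Sertoli cells were at 41.9 and 92.1 CPM (1.14). Endothelial cells, at 846 and 853 CPM, did not differ, and macrophages were lower in the knockout library at 493 and 318 CPM (-0.63, -0.80 to -0.47), the one member and class in which the knockout library was at least 1.5-fold lower (8.06% of genes in macrophages were). In undifferentiated spermatogonia it was at 27.5 and 28.1 CPM (0.03, -0.30 to 0.36), and was the only one of the 10 there whose interval included 0.

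Ier2 (ENSMUSG00000053560, chromosome 8 at 84661331 to 84662852, minus strand) codes for a small nuclear protein induced by growth factors. It was at 24.3 and 65.5 CPM in undifferentiated spermatogonia (1.43, 1.17 to 1.70), at 186 and 317 CPM in Sertoli cells (0.77) and at 1527 and 1668 CPM in interstitial stromal cells (0.13). Ier3 (ENSMUSG00000003541, chromosome 17 at 35821684 to 35822923, plus strand), which codes for a protein tied to cell survival under stress, had the widest span. It was at 16.6 and 56.9 CPM in undifferentiated spermatogonia, 3.43-fold and the largest ratio of any member in any of the 8 classes (1.78, 1.47 to 2.09). In Sertoli cells it differed less, at 51.6 and 64.3 CPM (0.32, 0.22 to 0.41). Endothelial cells held most of it and had less in the knockout library, 1056 against 773 CPM (-0.45, -0.58 to -0.33).

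Zfp36 (ENSMUSG00000044786, chromosome 7 at 28376784 to 28380253, minus strand) codes for tristetraprolin, which binds AU-rich elements in short-lived mRNAs and speeds their decay, those of immediate-early genes included. Peritubular myoid cells were at 595 and 1057 CPM (0.83, 0.77 to 0.89), undifferentiated spermatogonia at 21.2 and 41.3 CPM (0.96) and Sertoli cells at 36.2 and 57.5 CPM (0.67). Endothelial cells had less in the knockout library, with 1312 and 1072 CPM (-0.29, -0.40 to -0.19). Genes on the other strand overlap Jun (Junos), Junb (Prdx2), Jund (Gm11175) and Zfp36 (Gm44710); whether strand was used in the counting is not given in the sources used here, so their reads may be shared.

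Promoter sequence is shown for the 3 members with a match to GCGNGGGCG or to a CArG box. They are shown because the first is the site type that EGR proteins bind (Egr1 is a member) and the second is bound by SRF. Every member was above the control in germ and Sertoli cells, and also in myoid, stromal and Leydig cells. RefSeq windows of GRCm38.p6, from 250 bases before the start to 50 after it, were used for 8 of the 10 genes. Egr1 and Ier2 were not searched. Both strands were searched, and no matches overlapped. The stretches are 5′ to 3′ on the gene's strand, with matches in capitals (GCGNGGGCG in Fosb and Klf2, the CArG box in Zfp36). Those of Fosb and Klf2 are cut where the GENCODE gene begins. The Zfp36 stretch lies inside the GENCODE gene (28376784 to 28380253), and only 30 bases around the CArG box are shown.
Fosb, chr7:19310052-19310295, minus strand: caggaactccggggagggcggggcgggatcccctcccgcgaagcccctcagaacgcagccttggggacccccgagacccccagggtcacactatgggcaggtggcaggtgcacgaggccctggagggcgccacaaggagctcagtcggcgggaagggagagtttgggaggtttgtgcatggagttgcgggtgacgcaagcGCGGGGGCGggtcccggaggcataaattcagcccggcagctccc
Zfp36, chr7:28379267-28379296, minus strand: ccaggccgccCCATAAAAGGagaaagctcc
Klf2, chr8:72318812-72319032, plus strand: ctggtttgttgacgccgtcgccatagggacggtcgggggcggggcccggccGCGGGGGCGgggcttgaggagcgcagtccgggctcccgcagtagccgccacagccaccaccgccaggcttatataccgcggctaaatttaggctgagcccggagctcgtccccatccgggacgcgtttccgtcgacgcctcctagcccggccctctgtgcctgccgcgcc
GCGNGGGCG was in 3 of the 8 windows (in Fosb 50, in Zfp36 105 and in Klf2 199 bases before the RefSeq start) and in 5.55% of all 32851 windows of that length, and the CArG box in 1 of the 8 (Zfp36, 58 bases before the start) and in 1.63% of all. TGACGTCA, which CREB binds, and TGANTCA, which AP-1 binds, were in 0 of the 8 and in 1.79% and 7.81% of all windows. These are matches of letters in a short window and describe no binding. Fosb, Zfp36 and Klf2 were at least 1.5-fold higher in Sertoli cells, Zfp36 only before free RNA was subtracted, and so were Fos, Jun, Junb and Jund, whose windows held no match.

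Most Sertoli cells of the knockout library held UMIs of these genes. With each cell thinned to 1000 UMIs, 18.7% of control Sertoli cells (17.4 to 20) and 2.84% of knockout ones (2.45 to 3.28) had no UMI of the 10 genes. The median cell had 2 such UMIs in control and 5 in knockout cells, the 10th percentile was 0 and 2, and the 90th was 7 and 11. In undifferentiated spermatogonia, 50.3% of control and 28.0% of knockout cells had none. Interstitial stromal cells spread far more within a library: the 25th and 75th percentiles were 3 and 26 UMIs in control and 5 and 32 in knockout cells, with medians of 10 and 18. Endothelial medians were 4 and 5 and macrophage medians 7.5 and 9.5.

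Unthinned, 52.9% of control and 78.4% of knockout Sertoli cells had a Fos UMI, at median depths of 5196 and 4157 UMIs. Thinned, the shares were 18.7% and 41.1%. Undifferentiated spermatogonia, thinned alike, were at 6.81% and 12.2%, with free RNA present in both libraries as given below.

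**Figure D3:**
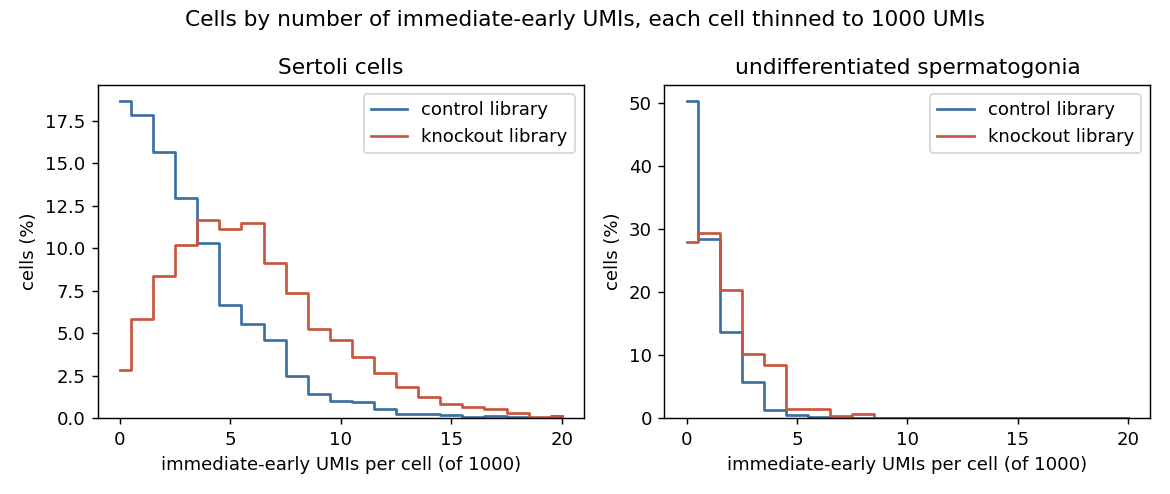
Percent of cells by the number of UMIs of the 10 genes after each cell was thinned to 1000 UMIs, for Sertoli cells (left) and undifferentiated spermatogonia (right), with 1 line per library. In Sertoli cells the bulk of the knockout curve lies to the right of the control's, with medians of 5 and 2. The curves are drawn up to 20 UMIs, where 0.126% of knockout and 0.135% of control Sertoli cells lay.

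Within a library, cells that had one of the genes tended to have the others. Among control stromal cells thinned to 1000 UMIs, Jun was seen in 81.5% of the 1100 cells with a Fos UMI and in 28.7% of the 585 without, Egr1 in 78.5% and 21.5%, and Zfp36 in 56.2% and 6.67%. The knockout library had nearly the same pattern there, with Jun in 87.1% of the 1601 cells with Fos and in 27.8% of the 544 without. In control Sertoli cells the gap was smaller, 64.5% against 44.8% for Jun and 47.3% against 23.2% for Egr1. In knockout Sertoli cells it was 79.6% against 70.1% and 60.7% against 44.9%, so that Jun was common there with or without Fos. Undifferentiated spermatogonia had only 36 and 35 cells with Fos, and Egr1 was seen in 8.33% of those against 9.13% of the rest in the control and in 17.1% against 22.3% for the knockout.

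Sertoli clusters were filled unevenly by the libraries, and the ratio differed between them. Most control cells lay in clusters 6, 12, 4 and 1 (1029, 770, 656 and 614 cells) and most knockout cells in clusters 0, 1, 7 and 9 (1723, 1130, 1068 and 937). In the 6 Sertoli clusters with at least 50 cells from each library the sum of the 10 genes was higher in the knockout library in all 6, with log2 ratios from 0.13 to 1.02 and a mean of 0.57. The largest was in cluster 6, led by Tmem255a and Gpr55 (1310 and 2661 CPM), followed by cluster 4, led by Myo5b (1545 and 2746 CPM), and cluster 13, led by Cst9 and Inha (4510 and 7737 CPM). The smallest was in cluster 7 (5586 and 6111 CPM), which holds mostly knockout cells. The Sertoli value of 0.94 therefore holds both differences within clusters and the different filling of clusters. For germ cells of mixed stage most control cells were in cluster 5 (1205 cells, 5 in the knockout library) and the knockout cells in clusters 21 and 10. Within cluster 10 the ratio was 0.63 (798 and 1236 CPM) and within cluster 21 it was 0.32 (1022 and 1276 CPM). With at least 2000 UMIs and 1000 genes per cell, clustered anew, the ratio of this class was 2.34, and with 10% free RNA subtracted it was 0.25; the cause of this range was not tested. Undifferentiated spermatogonia were a single cluster.

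Among control germ cells the meiotic clusters held least of these genes. Undifferentiated spermatogonia (cluster 11) were at 789 CPM, cluster 10, led by Lhx8, at 798 CPM, and cluster 5, where Dmrtb1 was a leading gene, at 551 CPM. Cluster 14, with Stra8, was at 306 CPM, and cluster 17, with Meiob and Spo11, at 229.5 CPM. The knockout library had 0 cells in clusters 14 and 17, which are left out of the comparisons.

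RNA quality and free RNA differed between the libraries too. The median mitochondrial share was 5.89% for control and 6.89% for knockout cells, 9.05% and 10.2% in Sertoli cells and 6.88% and 4.10% in undifferentiated spermatogonia. In undifferentiated spermatogonia and stromal cells the level fell from each bin of mitochondrial share to the next, in both libraries. Sertoli cells were at 4362 and 7343 CPM under 2%, highest at 2 to 5% (5609 and 8826 CPM), at 3263 and 6603 CPM from 5 to 10% and at 2186 and 4835 CPM from 10 to 20%. In undifferentiated spermatogonia the bins of 2 to 5% and 10 to 20% held 1058 and 1579 CPM and 498 and 892 CPM. Within each of the 4 bins the knockout library was higher in both classes, by 0.65 to 1.15 on the log2 scale in Sertoli cells and by 0.58 to 0.84 in undifferentiated spermatogonia. In interstitial stromal cells the ratio was 0.09 among cells under 2%, 0.34 between 2 and 5%, 0.32 between 5 and 10% and 0.78 (0.68 to 0.89) between 10 and 20%, a bin of 21 and 30 cells. Endothelial cells had at least 20 cells from each library in 1 bin only, 2 to 5%, with 32 each, and there the knockout library was higher (10998 and 14945 CPM, 0.44). By depth, Sertoli cells differed by 0.79 to 1.08 in each of 5 bins of UMIs per cell.

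**Figure D4:**
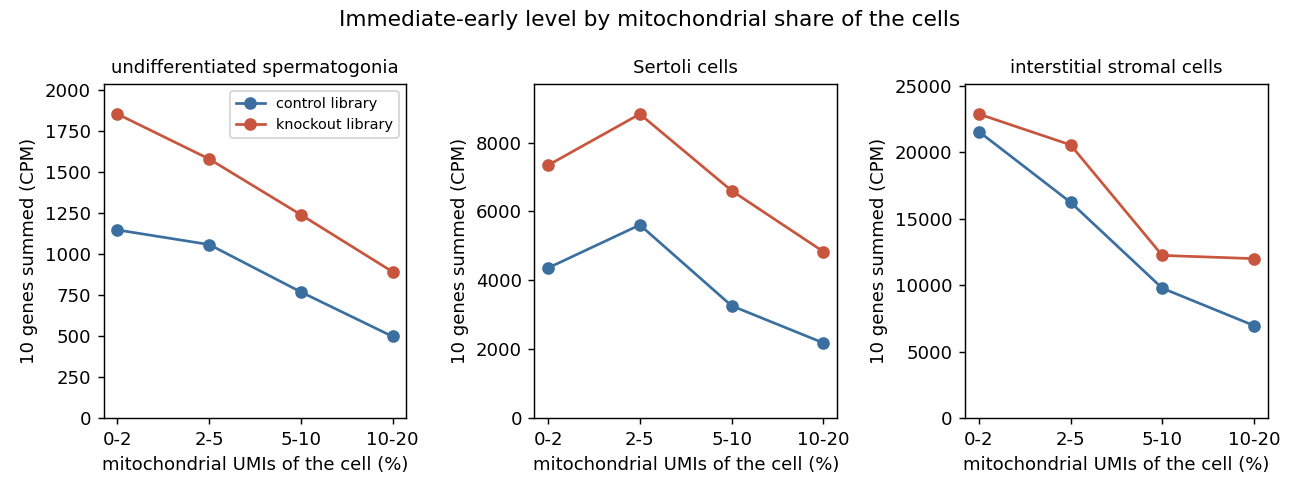
Level of the 10 genes summed, in CPM from 0, against the mitochondrial share of the cell in 4 bins, for undifferentiated spermatogonia, Sertoli cells and interstitial stromal cells, with 1 line per library. The knockout line lies above the control line in all 12 bins, and by ratio is closest to it in stromal cells under 2% (21559 and 22874 CPM).

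Free RNA, read from barcodes with 10 to 100 UMIs, held 3890 CPM of the 10 genes in the control against 10896 CPM in the knockout, which is above the level inside germ cells of either library. Its share was read from Rhox8, a Sertoli gene: 2.32% (1.75 to 3.03) and 2.52% (1.99 to 3.15) of the UMIs of undifferentiated spermatogonia, which would supply 11.5% and 19.5% of their immediate-early UMIs. With that share subtracted, 9 of the 10 genes were still higher in the knockout library and 7 at least 1.5-fold. Ier3 was then at 14.99 and 53.7 CPM, Jun at 59.3 and 169 CPM and Ier2 at 15.9 and 42.5 CPM. Fos came closer together, at 60.7 and 81.1 CPM (0.42, no longer 1.5-fold), and Klf2 turned, at 21.6 and 10.1 CPM (-1.09). With a set share of 5% subtracted from both libraries instead, 6 of the 10 genes were higher, 4 of them at least 1.5-fold, and the sum had a log2 ratio of 0.55, below 1.5-fold. In Sertoli cells the share read from Dcn, a stromal gene, was 4.28% and 3.58%, which would supply 5.32% and 6.51% of these UMIs, and all 10 genes remained higher, 8 of them at least 1.5-fold; Zfp36, at 28.1 and 35.4 CPM (0.33), no longer was. In germ cells of mixed stage the Rhox8 share would supply 15.3% and 25.8% of them, leaving 9 genes higher, 5 of them at least 1.5-fold. The calls lost there were Ier2 (0.51), Klf2 (0.53) and Zfp36 (8.62 and 10.6 CPM, 0.29), and Fosb was level (-0.05). In the interstitial, Leydig, myoid and endothelial classes free RNA would supply between 0.482% and 2.09%, and in macrophages 5.07% and 6.29%. Sertoli markers were seen in undifferentiated spermatogonia at 298 and 569 CPM over 16 genes, with 0 of the 16 at zero in either library.

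Other immediate-early genes, from a list of 36 that leaves out the 10, also had their highest medians in germ and Sertoli cells (0.87 in undifferentiated spermatogonia, 0.65 in each of the others) and their lowest in endothelial cells (-0.16). Over all cells 28 of 36 were at least 1.5-fold higher (20.3% of all genes were), with a median log2 ratio of 1.03 against -0.08 for all genes. The highest were Egr3 (9.84 and 28.1 CPM) and Maff (16.5 and 44.1 CPM), and the lowest Egr4 (19.2 and 14.4 CPM) and Klf10 (51.0 and 39.5 CPM). Values over all cells, here and for the lists below, also hold the different mix of classes. The part of that mix was not tested for these lists. In undifferentiated spermatogonia 19 of the 35 listed genes measured were at least 1.5-fold higher (15% of all genes there were). The counts were 21 of 36 in Sertoli cells (18.3%) and 14 of 35 in peritubular myoid cells (5.93%). They were 4 of 36 in interstitial stromal cells (5.73%), 3 of 33 in macrophages (6.87%) and 0 of 33 in endothelial cells (8.96%). Endothelial cells had 5 of 33 at least 1.5-fold lower, where 5.68% of genes were. Genes that shut the response off were a list of 17 with the DUSP phosphatases, Sprouty proteins and SOCS3. Of these, 12 were at least 1.5-fold higher over all cells (20.3% of all genes were). They were led by Socs3 (170 and 445 CPM) and Spry2 (22.9 and 59.8 CPM), with Dusp2 (11.7 and 6.82 CPM) and Spred1 (84.9 and 72.9 CPM) at the other end of the list. In Sertoli cells 9 of 17 were that much higher (18.3% of all genes were). In endothelial cells 0 of 16 were (8.96%), and 4 were at least 1.5-fold lower (5.68%).

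The kinases and factors that carry the signal in did not share the pattern. Of 20, among them Srf and the MAP kinases, 2 were at least 1.5-fold higher over all cells, where 20.3% of all genes were. These were Mapkapk2 (92.3 and 154 CPM) and Mapk3 (43.5 and 71.7 CPM), and the median of the 20 was -0.27. Mapk14 (151 and 78.0 CPM) and Rps6ka1 (27.5 and 9.59 CPM) were lowest. Within the 8 classes the medians of the 20 lay between -0.09 and 0.09. Sertoli cells had 2 of 20 at least 1.5-fold higher, where 18.3% of all genes were. Of 10 other bZIP partners of AP-1, 3 were at least 1.5-fold higher over all cells (20.3% of all genes were), Jdp2 (10.8 and 23.6 CPM) among them. Atf2 (187 and 143 CPM) and Atf7 (176 and 143 CPM) were lowest. Among 7 proteins that bind AU-rich mRNA, only Zfp36l1, a close relative of Zfp36, passed that fold over all cells (329 and 756 CPM). In Sertoli cells 2 of the 7 did, where 18.3% of all genes did. Over all cells Zfp36l2 was at 125 and 180 CPM, Tial1 at 89.1 and 66.2 CPM and Khsrp at 86.3 and 70.0 CPM. Of 10 further Kruppel-like factors 3 were at least 1.5-fold higher over all cells (20.3% of all genes were). Klf12 (139.9 and 254 CPM) and Klf15 (3.804 and 6.91 CPM) were first and Klf8 (52.0 and 35.9 CPM) and Klf11 (28.9 and 24.9 CPM) last.

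Heat shock genes, which handling can also induce, had a median of 0.60 over all cells, where 8 of 15 were at least 1.5-fold higher (20.3% of all genes were). The median was 0.45 in Sertoli cells, with 6 of 15 that much higher where 18.3% of all genes were. It was 0.16 in undifferentiated spermatogonia (2 of 14, against 15% of all genes) and -0.03 in endothelial cells (1 of 14, against 8.96%), so those counts were near the background. These medians were below those of the 10 genes except in macrophages, at 0.09 against -0.01. Dnajb1 (177 and 449.5 CPM) and Hspb8 (3.35 and 8.03 CPM) were highest and Hspa4l (93.0 and 30.9 CPM), a germ cell chaperone, and Hsp90aa1 (932 and 791 CPM) lowest. The part of handling in any of these results was not tested.

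**Figure D5:**
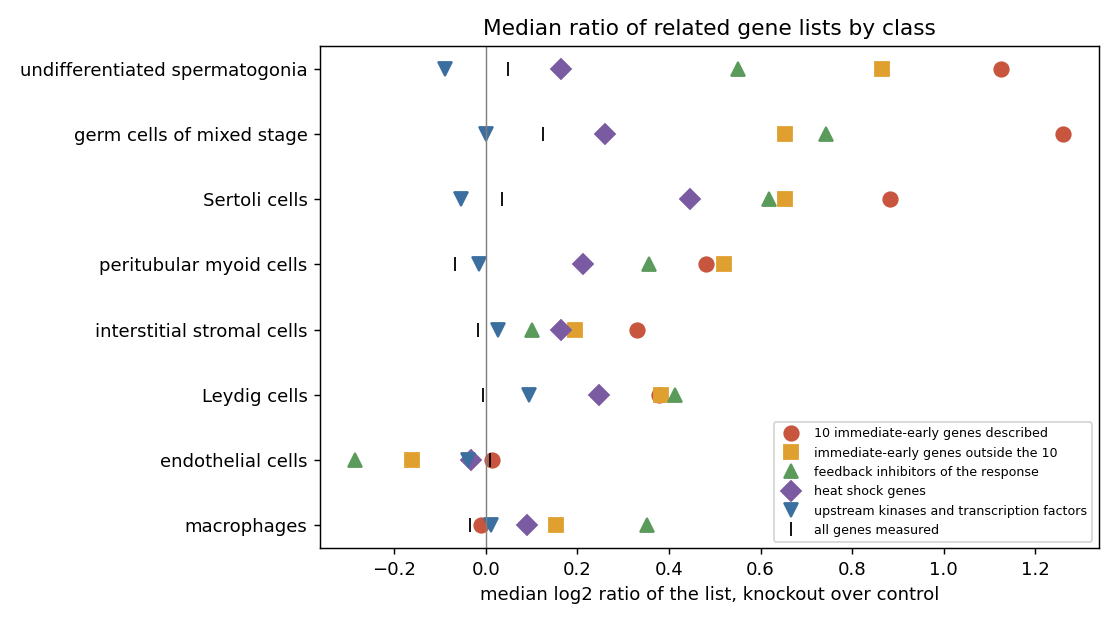
Median log2 ratio of knockout over control for the 10 genes and 4 related lists in each class, with all measured genes as a black tick. The 10 genes and the other immediate-early genes lie furthest right in germ and Sertoli cells (1.12 and 0.87 in undifferentiated spermatogonia) and at or left of 0 for endothelial cells (0.01 and -0.16), while upstream kinases and factors stay near 0.

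The genes whose level across the 16 sums (8 classes in 2 libraries) was most like the mean of the 10 were Rabac1 (Pearson r of 0.98 over log2 CPM), S100a11 (0.97), Rhob (0.97), Slc25a4 (0.97), Fundc2 (0.97), Spcs1 (0.97), Cast (0.96), Rpl39 (0.96), Tm2d2 (0.96) and Rps4x (0.96), out of 4526 compared. Rhob, a small GTPase gene, is itself on the list of other immediate-early genes. The sums share libraries and depth, and germ cells are low in many genes, so r describes the order of classes. Among the 10, Junb and Ier2 were most alike (0.99) and Fosb and Ier3 least (0.61).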

How the data were processed

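Deposited values are raw UMI counts, unfiltered, from Cell Ranger 7.1.0 (per the file headers) with build mm10 (per the submitters' processing notes); library totals were 146528736 and 112746953. Cells needed at least 1000 UMIs and 500 genes with at most 20% mitochondrial UMIs, which left 11232 and 10864. Scrublet (scanpy 1.11.5) set its own threshold in each library and found 495 doublets in control but 0 in knockout cells. The control's threshold was therefore used on both, after this had been seen, and removed 495 and 275. Clustering (2000 variable genes, 30 components, 15 neighbours, Leiden resolution 1, leidenalg 0.10.2) left out the 10 genes and the wider immediate-early, feedback and heat shock lists. Class names needed 3 or more markers at 1.5-fold in 20% of cells. A name was dropped when the 10 leading genes pointed elsewhere, or when UMIs were few and none of them was a marker, and conflicting germ stages became germ cells of mixed stage. Classes with 50 cells or more per library were compared.

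UMIs were summed by class and divided by the class total. Ratios had 0.5 added to each count. Intervals are exact (Poisson, conditional or Clopper-Pearson, 95%, scipy 1.17.1). The interval of the ratio was tried only on simulated Poisson counts. Those hold no spread between cells or animals, so the trial says nothing about such spread. Gene counts used 1.5-fold and 30 UMIs over the pair of libraries. The 10 genes, 7 further lists and classes were chosen with earlier results of these data known. Named are the 10, the 2 highest and 2 lowest of each list over all cells, the 10 most alike, and leading genes of clusters; 1 gene that this rule names is not reported here. Positions are from GENCODE M21, which held 32158 of the 32285 gene identifiers. Alternatives covered cell filters, doublets, clustering, scaling, thinning and free RNA.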

Additional observations from a re-analysis of the deposited data

Results flagged for a closer look

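Some of the 10 genes differed in opposite directions between classes, each with counting intervals that excluded 0; with 1 library per genotype the difference between classes was not tested. Junb had a log2 ratio of 1.71 in germ cells of mixed stage and -0.13 in endothelial cells. Jund was at 0.76 in Sertoli cells and -0.17 in endothelial cells, and Ier3 at 1.78 in undifferentiated spermatogonia and -0.45 in endothelial cells. Zfp36 was at 1.09 in germ cells of mixed stage and -0.29 in endothelial cells, and with the measured free RNA subtracted it was at 0.29 in those germ cells, no longer 1.5-fold. Egr1 was at 1.43 in germ cells of mixed stage and -0.12 in macrophages, and Klf2 at 1.58 in peritubular myoid cells and -0.63 in macrophages.

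Barcodes that were not called as cells also held more of the 10 genes in the knockout library. Those over 20% mitochondrial UMIs had 911 CPM (control) against 2585 CPM (knockout), which is 1.504 on the log2 scale. Free RNA, from barcodes with 10 to 100 UMIs, had 3890 and 10896 CPM, or 1.49.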

How the results depend on the processing

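Values are log2 ratios of the 10 genes summed unless stated; over all cells, in Sertoli cells and in undifferentiated spermatogonia each alternative kept the direction. Over all cells (1.33), the ratio was 1.33 with at least 2000 UMIs and 1000 genes, 1.35 with doublets kept, 1.32 per UMI of nuclear genes, 1.41 centred on the median gene, 1.32 and 1.31 with 5% and 10% free RNA subtracted, and 0.91 both as a mean over cells and thinned. At equal mix of classes, chosen after seeing the data, it was 0.46, and the number of the 10 genes at least 1.5-fold higher fell to 1. In Sertoli cells (0.94) it was 0.92 with at most 10% mitochondrial UMIs, 0.92 with doublets kept, 0.90 centred, 0.90 and 0.84 with 5% and 10% free RNA subtracted; 2 alternatives chosen after seeing the data gave 0.91 (measured free RNA subtracted) and 0.57 (mean within clusters, under 1.5-fold). In undifferentiated spermatogonia (0.84) it was 0.69 with at most 10% mitochondrial UMIs, 0.72 with doublets kept, 1.03 as a mean over cells, 0.94 thinned, and 0.55 and 0.42 with 5% and 10% free RNA subtracted, under 1.5-fold; the measured share gave 0.70. The number of classes at least 1.5-fold higher, 3, became 1 with 5% and 1 with 10% free RNA subtracted and was 3 or 4 under the other alternatives run on that count. The classes behind that count changed. With 500 UMIs and 250 genes, 7 classes were compared instead of 8. With each library clustered alone, the 4 included a class named meiotic germ cells (2.29), for which the main clustering had 0 knockout cells. Over all cells, all 10 genes stayed at least 1.5-fold higher under each alternative run on that count except the equal mix. Peritubular myoid cells passed 1.5-fold in 7 of 15 settings (0.53 to 0.66). Endothelial cells ranged from -0.07 to 0.23 and macrophages from -0.11 to 0.22, so the sign depended on the setting. At Leiden resolution 2 no macrophage class was compared, while a class named lymphoid cells was (0.07). Clustering each library alone gave no undifferentiated class in the knockout library and so no value. No paired analysis was possible because each genotype has 1 library, and leaving out a replicate could not be done.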

Other observations

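A small cluster that took no class name, with medians of 1431.5 and 1677 UMIs, was led by Hspb1, Bmyc, Ccn1, Ier3 and Id1, although Hspb1, Ccn1 and Ier3 had been left out of the clustering. It held 14 control and 195 knockout cells. The 10 genes made up 13801 CPM of its control and 15217 CPM of its knockout UMIs, above every cluster named Sertoli. It passed the marker count for Sertoli cells but not the rule on UMIs. Pericytes (41 and 26 cells) were at 14833 and 20003 CPM, and rete or mesothelial epithelium (16 and 14 cells) at 14181 and 25474 CPM. A Sertoli cluster led by Iqgap3 and histone genes, with 9 control and 316 knockout cells, was at 2611 and 5058 CPM.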
